A study of Mus musculus with 12 samples.

Results

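The 10 genes described here make, degrade and sense active vitamin D, or carry and regulate phosphate in the kidney tubule: Cyp24a1, Cyp27b1, Vdr, Kl, Fgfr1, Pth1r, Slc34a1, Slc34a3, Slc20a1 and Slc20a2. They were chosen by symbol, as every probe set of the array whose annotation names 1 of these genes, giving 18 of 45101 probe sets. All 10 genes passed the filter on dim signals, with 17 of the 18 probe sets, among 12385 genes tested. The exception was 1 more probe set of Slc20a1, which lay above the array median on 0 of 12 arrays. Total RNA of mouse renal cortex was measured on 12 arrays in 4 groups of 3: ICGN mice at 4 weeks, ICR mice at 4 weeks, ICGN mice at 8 weeks and ICR mice at 8 weeks. ICGN is an inbred mouse line derived from the ICR stock, is labelled as having nephrotic syndrome, and is known to carry a germline mutation of Tns2, the gene of tensin 2, an adaptor protein of the podocyte. ICR mice, labelled normal, are an outbred stock, so the groups differ in genetic background as well as at Tns2. The labels give no treatment and number the replicates without saying that each came from an animal of its own. The spread behind every p-value is therefore that between labelled samples, and it may be technical.

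The active hormone, calcitriol, is made in the proximal tubule by the 1-alpha-hydroxylase Cyp27b1 and inactivated by the 24-hydroxylase Cyp24a1. It acts through the vitamin D receptor Vdr, which binds DNA together with a retinoid X receptor and is a known activator of Cyp24a1 and repressor of renal Cyp27b1. Klotho, encoded by Kl, binds FGF receptors such as Fgfr1 and makes them responsive to the bone hormone FGF23, which lowers sodium-phosphate cotransport and Cyp27b1 and raises Cyp24a1. Parathyroid hormone, through Pth1r, also lowers phosphate cotransport but raises Cyp27b1. Slc34a1 and Slc34a3 are sodium-phosphate cotransporters of the proximal tubule brush border, and Slc20a1 and Slc20a2 are widely expressed ones.

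Signals are given after each array was brought to the same median over tested probe sets, without units. Fold changes are ICGN over ICR on the scale of log2(signal + 13), ± SE, a scale that shrinks the differences of dim genes. A gene was called when limma's moderated test gave a Benjamini-Hochberg adjusted p of 0.05 or less over all 12385 genes. Strain groups without overlap were common, at 24.5% of all genes at 4 weeks and 45.8% at 8 weeks. Tns2 averaged 91.5 ± 17.9 in ICGN and 386 ± 13.7 in ICR at 4 weeks, and 92.2 ± 51.2 in ICGN and 363 ± 22.4 in ICR at 8 weeks (SD, n = 3 each), and was called lower at both ages. All 12 proximal tubule markers and all 8 distal tubule markers of the labelled tissue passed the filter. The correlation between arrays of a group lay between 0.977 and 0.989. The deposited 8-week arrays had been scaled to another target than the 4-week arrays. Whether the ages were also hybridised apart is not stated, so age and any such array set cannot be told apart in comparisons of the ages.

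Cyp24a1 had the largest strain difference of the 10 genes at 4 weeks. Its signal was 2466, 4450 and 2159 on the ICGN arrays at 4 weeks, against 348, 706 and 542 on the ICR arrays. Every ICGN array at 4 weeks lay above every ICR array, and the transcript rose 5.50-fold in ICGN (95% confidence interval 3.00 to 10.1; log2 2.46 ± 0.41, limma adjusted p = 0.0044). At 8 weeks the ICGN arrays read 664, 2644 and 1488, against 1106, 810 and 677 on the ICR arrays. The groups overlapped at that age because the first ICGN array lay below all 3 ICR arrays, and the difference of 0.70 ± 0.41 was not called (95% confidence interval -0.18 to 1.57; limma adjusted p = 0.210). Without that array it was 1.22 (limma adjusted p = 0.022). Over all 26 other settings the difference lay between 0.23 and 1.22 (limma adjusted p = 0.012 to 0.686), and 2 of them called it. A second probe set of Cyp24a1 gave 2.55 ± 0.44 at 4 weeks and 0.86 ± 0.44 at 8 weeks. The strain differences of Cyp24a1 at the 2 ages were not shown to differ (-1.77 ± 0.58, limma adjusted p = 0.0655).

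Cyp27b1, the enzyme of the opposite step, was called at 8 weeks and not at 4 weeks. At 4 weeks it had signals of 434, 430 and 641 in ICGN, against 506, 211 and 346 in ICR. These groups overlapped and the difference of 0.55 ± 0.31 was not called (limma adjusted p = 0.395). At 8 weeks the ICGN arrays read 814, 536 and 603, against 123, 131 and 54.3 on the ICR arrays. Every ICGN array stood far above every ICR array, and Cyp27b1 rose 5.96-fold (95% confidence interval 3.74 to 9.51; log2 2.58 ± 0.31, limma adjusted p = 5.6e-05). The strain difference itself was larger at 8 than at 4 weeks by 2.03 ± 0.44 (limma adjusted p = 0.0136). By mean signal the groups ranked ICGN at 8 weeks (651 ± 145), ICGN at 4 weeks (502 ± 121), ICR at 4 weeks (354 ± 148) and ICR at 8 weeks (103 ± 42.1; SD, n = 3 each), and of the neighbours in that order only the 2 ICR groups did not overlap.

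Macrophages are another known source of Cyp27b1. Of 10 macrophage markers 7 were called higher in ICGN at 4 weeks and 9 at 8 weeks. Their summed signal was 4138 to 4746 in ICGN against 2531 to 3599 in ICR at 4 weeks, and 6789 to 8347 in ICGN against 3431 to 4608 in ICR at 8 weeks. The brightest marker in these sums, Csf1r, was not higher in ICGN, whereas the other 9 averaged higher at both ages. Csf1r averaged 1392 ± 67.7 in ICGN and 1698 ± 289 in ICR at 4 weeks. At 8 weeks it averaged 2322 ± 163 in ICGN and 2408 ± 536 in ICR (SD, n = 3 each). All 10 markers passed the filter. The part of these cells in the Cyp27b1 difference was not tested. In both ICGN groups the arrays stood in the same order by macrophage sum and by Cyp27b1. In both ICR groups the array with the highest macrophage sum had the lowest Cyp27b1. These orders of 3 arrays a group were noticed after the values were seen and only describe the arrays.

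Within 3 of the 4 groups the arrays ranked by Cyp24a1 stood in exactly the reverse order of their rank by Cyp27b1. The exception was ICR at 8 weeks. With 3 arrays a group and an order noticed after the values were seen, this is a description of the arrays.

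**Figure D1:**
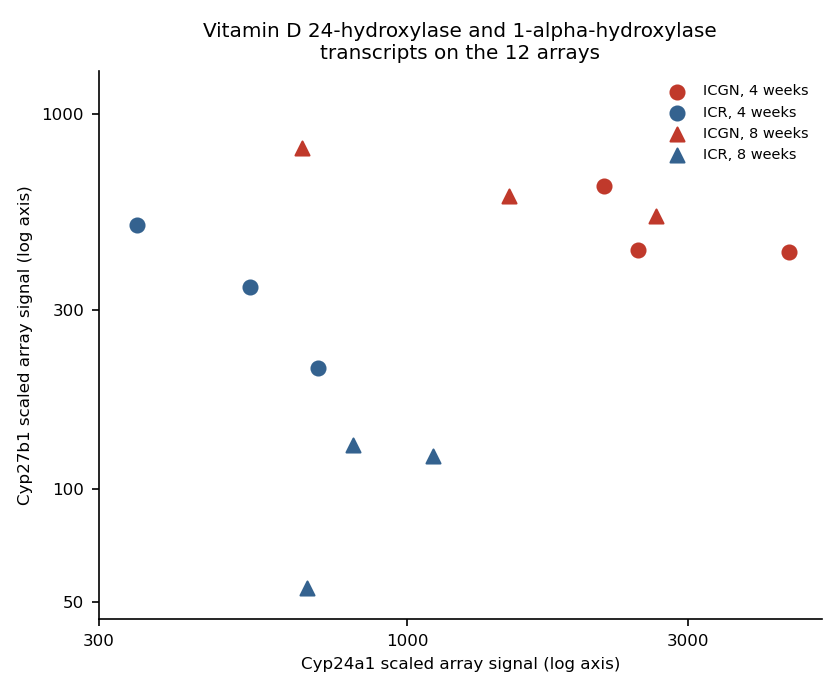
Scaled array signal of Cyp24a1 (x) against Cyp27b1 (y), both on log axes, for each of the 12 arrays; red marks are ICGN and blue marks ICR, circles are 4 weeks and triangles 8 weeks. For Cyp24a1 the 3 ICGN arrays at 4 weeks, and 1 at 8 weeks, lie at 2159 or more, and the 3 ICR arrays at 8 weeks lie lowest for Cyp27b1, at 131 or less.

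Vdr, the receptor, was lower at 8 weeks where Cyp27b1 was higher. At 4 weeks it read 1143, 1318 and 1145 in ICGN, against 975, 1275 and 1132 in ICR, and the overlapping groups differed by 0.10 ± 0.13 (limma adjusted p = 0.763). At 8 weeks it read 805, 1088 and 832 in ICGN, against 2030, 1700 and 1820 in ICR. No ICGN array came near an ICR array at 8 weeks, and Vdr fell by 1.03 on the log2 scale (SE 0.13, limma adjusted p = 7.4e-05), which put ICGN at 0.491 of the ICR level. The strain difference at 8 weeks was lower than that at 4 weeks by a log2 value of -1.12 ± 0.18 (limma adjusted p = 0.0035). The second Vdr probe set gave 0.53 ± 0.22 at 4 weeks and -0.72 ± 0.22 at 8 weeks.

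Cyp27b1 and Vdr had the largest called changes of the strain difference between the ages, so their promoters are shown (RefSeq, assembly GRCm38.p6; 250 bases before to 50 bases after the annotated start, 5′ to 3′ on the gene's strand). The Cyp27b1 window is chr10:127047996-127048295 on the plus strand and the Vdr window chr15:97908247-97908546 on the minus strand. Capitals mark matches on either strand to 4 motifs. These were the GC box with the letters GGGCGG, the element CCAAT, which gives its own letters, the run TATATA, here called TATA-like, and TGACG, the core of a cAMP response element. No matches overlap.
Cyp27b1: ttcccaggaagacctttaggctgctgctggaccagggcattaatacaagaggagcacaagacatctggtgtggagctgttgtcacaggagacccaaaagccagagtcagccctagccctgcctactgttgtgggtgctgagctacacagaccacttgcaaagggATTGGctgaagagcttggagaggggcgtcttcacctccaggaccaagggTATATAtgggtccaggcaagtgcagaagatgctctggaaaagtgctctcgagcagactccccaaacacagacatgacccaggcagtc
Vdr: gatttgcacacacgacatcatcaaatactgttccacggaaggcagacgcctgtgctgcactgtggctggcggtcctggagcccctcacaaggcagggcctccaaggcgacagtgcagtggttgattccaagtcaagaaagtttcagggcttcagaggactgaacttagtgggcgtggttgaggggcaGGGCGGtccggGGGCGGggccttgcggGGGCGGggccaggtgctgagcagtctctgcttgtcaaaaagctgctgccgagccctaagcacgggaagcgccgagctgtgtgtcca
The Cyp27b1 window holds the TATA-like run, 37 bases before the start, and a CCAAT element on the minus strand, 86 bases before the start, and no GC box. The Vdr window holds 3 GC boxes, 63, 52 and 36 bases before the start, and neither of the other 2. The cAMP element core is in neither window. Of 32851 RefSeq mouse promoters of this length, 5.67% held the TATA-like run, 37.4% a CCAAT element, 35.7% a GC box and 20.8% the cAMP element core. The matches are letters in these windows, and nothing about a factor's binding was measured. The promoter table matched 7 of the 10 genes; Cyp24a1, Slc20a2 and Fgfr1 were not matched.

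Kl, the FGF23 co-receptor, was above the median on all 12 arrays and separated the strains at 8 weeks. On the 4-week arrays it read 5146, 4933 and 5070 in ICGN, against 5346, 5220 and 5415 in ICR. The groups did not overlap, but the gap was small and the difference of -0.08 ± 0.12 was not called (limma adjusted p = 0.813). At 8 weeks it read 3274, 4787 and 3953 in ICGN, against 5560, 6033 and 7162 in ICR. Kl fell by 0.65 on the log2 scale (SE 0.12, limma adjusted p = 0.0013), to 0.637 of the ICR level, with every ICGN array below every ICR array. A second probe set of Kl was not called at either age and gave 0.64 ± 0.19 at 4 weeks and 0.20 ± 0.19 at 8 weeks (limma adjusted p = 0.091 and 0.476). With the mean of both probe sets the value at 8 weeks was -0.23 and was not called (limma adjusted p = 0.135).

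Fgfr1, which klotho converts to an FGF23 receptor, showed no called difference. Its signal was 256, 258 and 232 in ICGN against 254, 234 and 230 in ICR at 4 weeks. The 8-week arrays read 208, 230 and 223 in ICGN against 251, 247 and 230 in ICR. The groups overlapped at 4 weeks, and at 8 weeks the highest ICGN and the lowest ICR array both read 230. The 95% confidence interval of the log2 difference was -0.16 to 0.26 at 4 weeks and -0.34 to 0.08 at 8 weeks.

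Pth1r, the parathyroid hormone receptor, was lower in ICGN at both ages. It read 3313, 3402 and 3814 in ICGN against 4736, 4187 and 4501 in ICR at 4 weeks. At 8 weeks it read 3263, 3489 and 3417 in ICGN against 5449, 5488 and 5842 in ICR. The groups did not overlap at either age, and Pth1r fell by 0.35 on the log2 scale at 4 weeks (SE 0.08, limma adjusted p = 0.0299) and by 0.72 at 8 weeks (SE 0.08, limma adjusted p = 3.9e-05). The call at 4 weeks was lost under 9 of 26 other settings, over which the adjusted p lay between 0.0206 and 0.376. Leaving out ICGN replicate 1 or 2 or ICR replicate 1 or 3 was enough to end it (limma adjusted p = 0.0888 to 0.122). The 2 strain differences were not shown to differ (-0.37 ± 0.12, limma adjusted p = 0.0586).

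Of the phosphate carriers, the brush border cotransporters Slc34a1 and Slc34a3 both fell in ICGN at 8 weeks. Slc34a1, which carries most of the phosphate reclaimed in the mouse proximal tubule, read 10970, 11632 and 13822 in ICGN against 14021, 14000 and 13396 in ICR at 4 weeks. These groups overlapped and differed by -0.19 ± 0.09 (limma adjusted p = 0.308). At 8 weeks Slc34a1 read 9566, 10552 and 9317 in ICGN against 12860, 14237 and 14326 in ICR. The groups at 8 weeks did not overlap, and Slc34a1 fell by 0.49 on the log2 scale (SE 0.09, limma adjusted p = 0.0015). Under quantile normalization that value was -0.16 and was not called (limma adjusted p = 0.0868).

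Slc34a3, also a brush border cotransporter, read 1430, 1227 and 1716 in ICGN against 1446, 2296 and 2274 in ICR at 4 weeks. The overlapping groups differed by -0.44 ± 0.18 (limma adjusted p = 0.216). Without ICR replicate 1, the lowest of its group, the difference was -0.66 (limma adjusted p = 0.0454). No other of the 26 settings called it, and over them it lay between -0.66 and -0.32 (limma adjusted p = 0.0454 to 0.510). At 8 weeks Slc34a3 read 654, 828 and 556 in ICGN against 1150, 1366 and 1259 in ICR. It fell by 0.89 on the log2 scale (SE 0.18, limma adjusted p = 0.0022), to 0.539 of the ICR level, with no overlap of the groups.

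Of the widely expressed cotransporters, Slc20a2 was called and Slc20a1 was not. Slc20a2 read 399, 389 and 507 in ICGN against 440, 448 and 389 in ICR at 4 weeks, a difference of 0.01 ± 0.12. At 8 weeks Slc20a2 read 402, 373 and 332 in ICGN against 524, 574 and 543 in ICR, and fell by 0.55 on the log2 scale (SE 0.12, limma adjusted p = 0.0025). All 3 ICGN arrays lay below the ICR arrays at 8 weeks only. The change of its strain difference between the ages, -0.57 ± 0.16, was called (limma adjusted p = 0.0424), but the call was lost under 17 of 25 other settings. It ended on leaving out any single array other than ICGN replicate 2 at 4 weeks, ICGN replicate 1 at 8 weeks or ICR replicate 1 at 8 weeks (limma adjusted p = 0.0504 to 0.104). Its second probe set gave -0.27 ± 0.13 at 8 weeks and was not called (limma adjusted p = 0.145).

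Slc20a1 read 542, 585 and 553 in ICGN against 704, 506 and 441 in ICR at 4 weeks. At the later age it read 742, 545 and 616 in ICGN against 530, 478 and 786 in ICR. The groups overlapped at both ages, with differences of 0.05 ± 0.19 and 0.11 ± 0.19 (limma adjusted p = 0.930 and 0.703). A second probe set, above the array median on 5 of 12 arrays, read 106, 58.7 and 43.5 in ICGN against 36.0, 23.5 and 18.1 in ICR at 8 weeks and was called higher (1.04 ± 0.29, limma adjusted p = 0.0151), so the probe sets of Slc20a1 disagree.

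**Figure D2:**
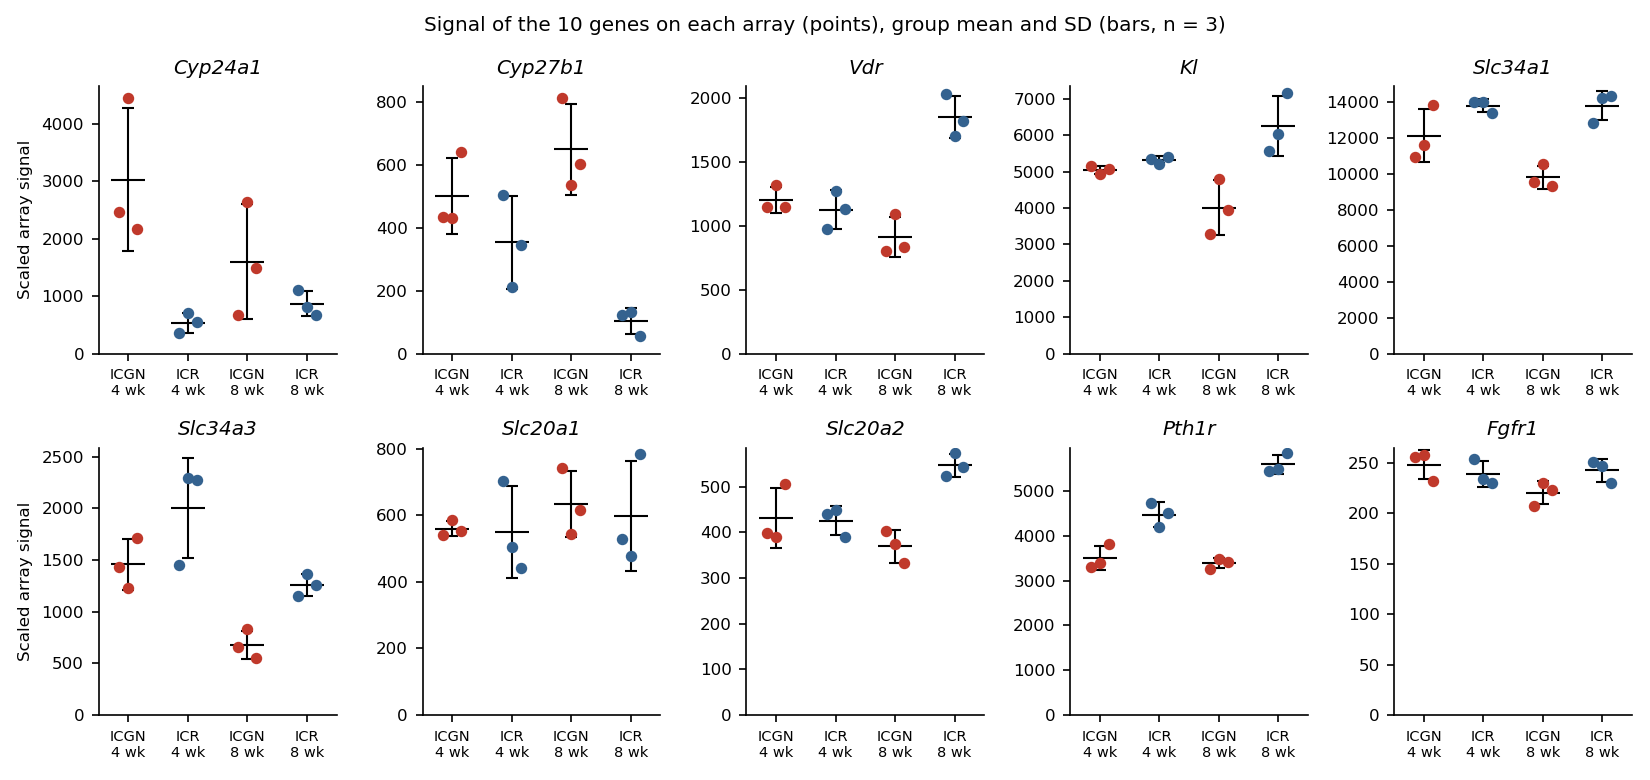
Scaled array signal (y, linear axis from 0) of each of the 10 genes in its own panel; points are single arrays, red for ICGN and blue for ICR, and the bars give the group mean and SD (n = 3). At 8 weeks the ICGN points of Cyp27b1 lie above all ICR points, at 536 or more against 131 or less, and those of Vdr, Kl, Slc34a1, Slc34a3, Slc20a2 and Pth1r lie below them. Over all genes, 45.8% had no overlap of the strains at 8 weeks.

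Across the 10 genes, 1 was called higher (Cyp24a1) and 1 lower (Pth1r) in ICGN at 4 weeks. The background at that age was 4.05% of all genes called, 2.11% higher and 1.95% lower, and the median log2 difference was 0.03 over the 10 genes against -0.01 over all genes. At 8 weeks 1 was called higher (Cyp27b1) and 6 lower (Vdr, Kl, Pth1r, Slc34a1, Slc34a3 and Slc20a2), and the median was -0.52 against -0.10 over all genes. The members' median at 8 weeks was -0.26 after quantile normalization (1 higher, 5 lower; all genes -0.03), -0.37 with the authors' scaling (1 higher, 6 lower; all genes 0.05) and -0.03 with arrays centred on proximal tubule markers (3 higher, 2 lower; all genes 0.40). The background at 8 weeks was 33.8% called, 11.6% higher and 22.2% lower. The change of the strain difference between the ages was called for 3 of the 10 genes, Cyp27b1 higher and Vdr and Slc20a2 lower, where 10.7% of all genes were called, 3.88% higher and 6.77% lower. Cyp24a1 (-1.77 ± 0.58, limma adjusted p = 0.0655) and Kl (-0.57 ± 0.17, limma adjusted p = 0.0510) missed the threshold in that test. Without ICGN replicate 2 at 8 weeks both were called (-2.23 and -0.71, limma adjusted p = 0.0183 and 0.0160), and without ICR replicate 1 at 8 weeks Kl was (-0.65, 0.0337).

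The share of called genes that were higher in ICGN at 8 weeks depended on the scaling. It was 34.4% here, 24.6% with arrays brought to a common median of all probe sets, 50.5% after quantile normalization and 59.9% with the authors' scaling. At 4 weeks it was 52.0% here and 62.3% with the authors' scaling. For the change of the strain difference it was 36.4% here, 54.0% after quantile normalization and 58.5% with the authors' scaling. The members called at 8 weeks kept their direction under all of these.

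**Figure D3:**
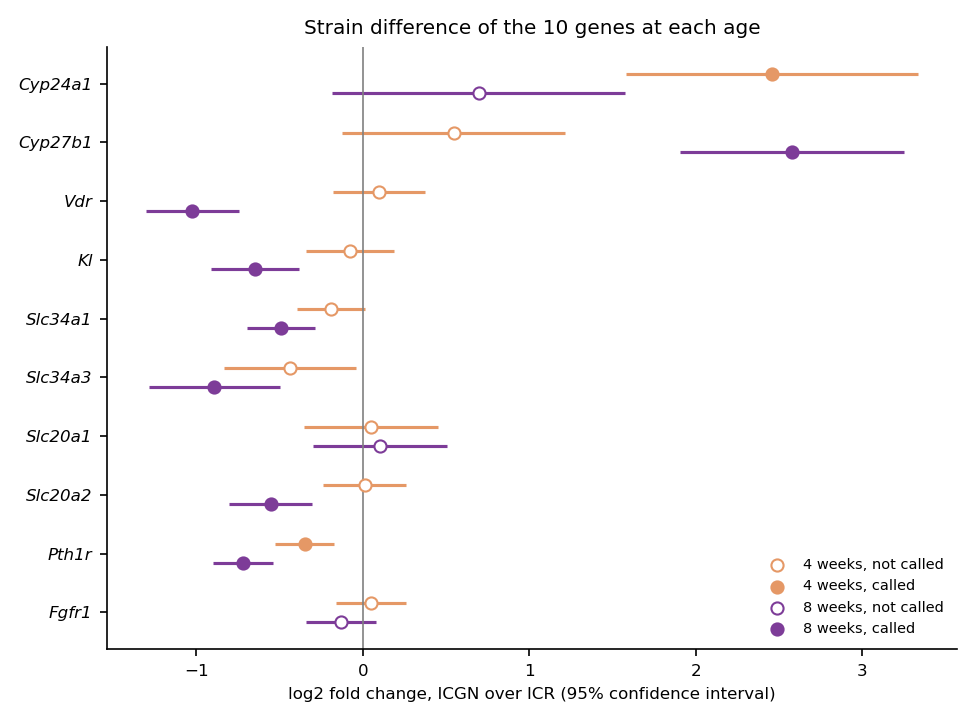
Log2 fold change of ICGN over ICR (x) for each of the 10 genes (y), at 4 weeks (orange, upper mark) and 8 weeks (purple, lower mark); lines are 95% confidence intervals and filled marks are called genes. Cyp24a1 stands at 2.46 at 4 weeks and Cyp27b1 at 2.58 at 8 weeks, and 6 genes lie below 0 with filled marks at 8 weeks.

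Whole cortex was measured, and fewer cells of a type and less RNA per cell cannot be told apart in it. Of 12 proximal tubule markers, 0 were called at 4 weeks and 9 were called lower in ICGN at 8 weeks, with a median of -0.57 (-0.23 after quantile normalization, with 6 lower and 1 higher); Slc34a1, Slc34a3, Cyp27b1 and Pth1r are known to be expressed in the same cells. Their summed signal was 75722 to 85545 in ICGN against 106268 to 118887 in ICR at 8 weeks, and 78544 to 102044 in ICGN against 94595 to 101626 in ICR at 4 weeks. In an alternative added after the data were seen, each array was centred on these 12 markers. On that scale Slc34a1 differed by 0.00054 at 8 weeks (limma adjusted p = 0.997), Slc20a2 by -0.06 (0.754), Kl by -0.16 (0.351) and Pth1r by -0.23 (0.133), none of them called. Vdr (-0.53, limma adjusted p = 0.0076) and Slc34a3 (-0.40, 0.0426) were still called lower. Cyp27b1 (3.07, limma adjusted p = 8.9e-07) was still called higher, and Cyp24a1 (1.19, 0.0116) and Slc20a1 (0.60, 0.0343) were called higher as well. This centring moved the median of all genes at 8 weeks to 0.40, and 94.6% of its calls were higher, so its values are relative to the marker genes and not to the cortex as a whole.

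**Figure D4:**
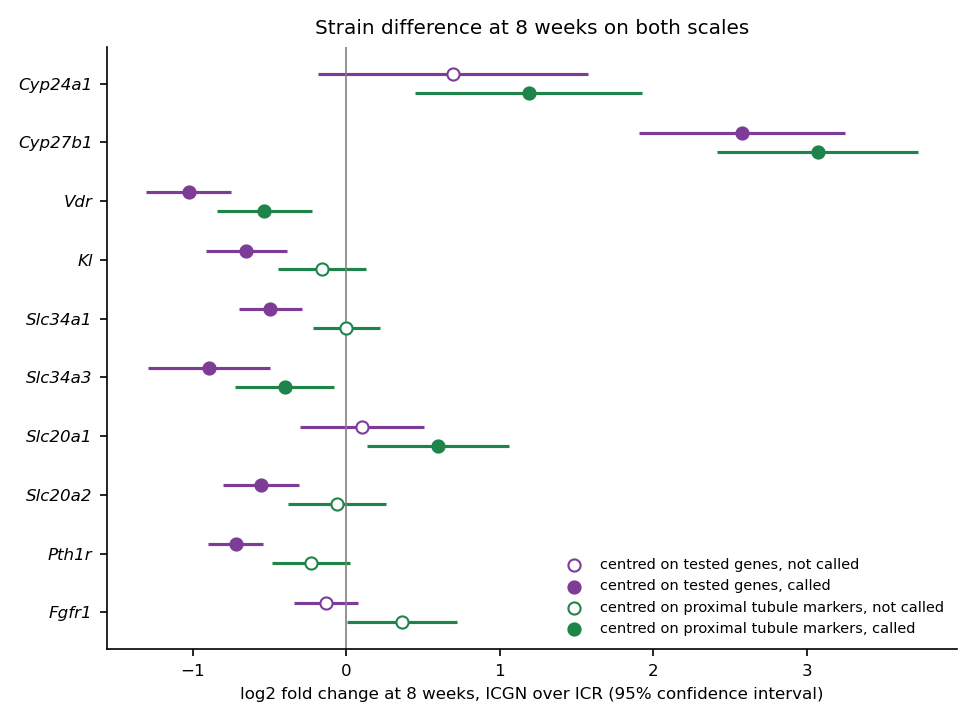
Log2 fold change of ICGN over ICR at 8 weeks (x) for each of the 10 genes (y), with arrays centred on the tested genes (purple, upper mark) or on 12 proximal tubule markers (green, lower mark); lines are 95% confidence intervals and filled marks are called genes. Slc34a1 moves to 0.00054 on the marker scale, while Vdr stays at -0.53 and Cyp27b1 at 3.07.

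Other cell types also differed. Of 8 distal tubule markers, 2 were called lower in ICGN at 4 weeks and 5 at 8 weeks, among them Pvalb (-1.96 ± 0.17 and -2.83 ± 0.17) and the thiazide-sensitive cotransporter Slc12a3 (-1.11 ± 0.16 at both ages); Kl is known to be strongest in these segments. Of 5 tubular injury markers, 2 were called higher at 4 weeks and 5 at 8 weeks, with Havcr1, the kidney injury molecule, at 3.63 ± 0.36 and 4.06 ± 0.36. Of 7 fibroblast and pericyte markers 1 was called lower at 4 weeks and 5 higher at 8 weeks, and of 6 endothelial markers 0 were called at 4 weeks and 3 lower at 8 weeks. The fibroblast call at 4 weeks, Col3a1, was lost after quantile normalization (limma adjusted p = 0.111), with the authors' scaling (0.0514) and with proximal tubule centring (0.235). That centring left 3 distal tubule markers lower and 1 higher, and 1 endothelial marker lower, at 8 weeks. The 3′ to 5′ signal ratio of Actb, a measure of RNA integrity, averaged 1.40 ± 0.08 in ICGN against 1.39 ± 0.05 in ICR at 4 weeks, and 1.61 ± 0.04 in ICGN and 1.94 ± 0.21 in ICR at 8 weeks (SD, n = 3 each). The same ratio for Gapdh averaged 0.814 ± 0.003 in ICGN and 0.807 ± 0.013 in ICR at 4 weeks. At 8 weeks it averaged 0.794 ± 0.003 in ICGN and 0.800 ± 0.015 in ICR, so the 2 control genes differ in this respect. The part of these values in the members' differences was not tested.

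Of 12 tested genes around vitamin D uptake, synthesis and receptor function, 7 were called lower in ICGN at 8 weeks and 0 higher, with a median of -0.47. They included Fdx1, the electron donor of the mitochondrial hydroxylases (-0.65 ± 0.11, limma adjusted p = 5.4e-04), and Rxra, the receptor's DNA-binding partner (-0.53 ± 0.10, 9.9e-04). Dab2, an endocytic adaptor of megalin, was also lower (-0.52 ± 0.11, 0.0025), as was the coactivator Ncoa3 (-0.69 ± 0.13, 0.0015). Lrp2, which encodes megalin, the receptor that takes up filtered vitamin D with its binding protein, is in this list and among the proximal tubule markers. At 4 weeks 1 of the 12 was called higher, the sterol and vitamin D hydroxylase Cyp27a1 (491 ± 113 in ICGN and 260 ± 26.3 in ICR; 0.87 ± 0.17, limma adjusted p = 0.0116), and 1 lower, Ncoa3 (-0.88 ± 0.13, 0.0023). The 8-week count depended on the scaling, with 5 lower after quantile normalization (median -0.23), 4 with the authors' scaling (median -0.32) and, centred on the proximal tubule markers, 1 higher and 0 lower (median 0.02). Dab2 was not called after quantile normalization (limma adjusted p = 0.0545).

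Most tubular calcium genes, several of them known vitamin D targets, were not called. Of 9 tested, none passed the test at 4 weeks; at 8 weeks 2 were called higher and 0 lower, with a median of -0.04. The called genes were Cldn16, a paracellular calcium and magnesium channel protein (462 ± 70.2 in ICGN and 257 ± 28.9 in ICR; 0.81 ± 0.13, limma adjusted p = 4.0e-04), and the calcium pump Atp2b1 (0.44 ± 0.11, 0.0063). Calb1, the distal calcium-binding protein, was not called at 8 weeks, at 3613 ± 635 in ICGN and 4262 ± 423 in ICR (-0.25, limma adjusted p = 0.350). The median was 0.24 after quantile normalization and 0.12 with the authors' scaling, and Cldn16 and Atp2b1 were called higher under both. The genes of this list come from several nephron segments. At 8 weeks Trpv6, Cldn14 and Cldn19 averaged 33.8, 39.6 and 38.4 in ICGN and 42.9, 39.2 and 41.8 in ICR. These means lie below the lowest array median, 44.0, so the lack of a call says little for these genes. Trpv5 had no probe set annotated to it alone.

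Of 12 tested partners of phosphate transport, 1 was called lower at 4 weeks; the 8-week counts were 1 higher and 6 lower, with a median of -0.32. Of 4 tested transcripts for scaffold and linker proteins of the brush border, 2 fell at 8 weeks, Slc9a3r1 by 0.61 (SE 0.09, limma adjusted p = 1.7e-04) and Pdzk1 by 0.52 (SE 0.09, 5.6e-04). The other two, named after their values were seen, were not called: Slc9a3r2 differed by -0.42 ± 0.17 (limma adjusted p = 0.0712) and Ezr, which encodes ezrin, by 0.07 ± 0.09 (0.612). The anion and phosphate transporter Slc17a1 fell by 0.69 (SE 0.12, limma adjusted p = 7.4e-04) and the phosphate exporter Xpr1 by 0.35 (SE 0.08, 0.0049). Stc1, encoding stanniocalcin 1, fell by 0.75 at 4 weeks (SE 0.15, limma adjusted p = 0.0109), with 139 ± 15.8 in ICGN and 242 ± 34.4 in ICR. Stc1 was not called at 8 weeks (152 ± 26.2 in ICGN, 115 ± 3.02 in ICR; 0.35, limma adjusted p = 0.0772), but was called higher at that age with the authors' scaling (0.50, 0.0241) and with proximal tubule centring (0.85, 0.0053). The 8-week counts were 1 higher and 3 lower after quantile normalization, with a median of 0.01, and 2 higher and 3 lower with the authors' scaling, Xpr1 being called under neither (limma adjusted p = 0.302 and 0.0593). Centred on the proximal tubule markers they were 4 higher and 0 lower at 8 weeks, and Stc1 was not called at 4 weeks (limma adjusted p = 0.151).

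Of 18 tested genes of FGF23 and parathyroid hormone signalling, 1 was called higher at 4 weeks; the 8-week counts were 2 higher and 6 lower, with a median of -0.32. Egr1, an immediate early gene that FGF23 and many other stimuli induce, rose by 1.14 ± 0.25 at 4 weeks and 2.45 ± 0.25 at 8 weeks (limma adjusted p = 0.0199 and 1.7e-05). The 8-week means of Egr1 were 1050 ± 306 for ICGN and 177 ± 28.9 for ICR. Rgs2, a regulator of G protein signalling, rose by 0.93 ± 0.16 at 8 weeks (limma adjusted p = 5.9e-04). The kinase gene Prkcz fell by 0.88 (SE 0.09, limma adjusted p = 1.8e-05) and the G protein subunit Gna11 by 0.35 (SE 0.08, 0.0048). Egr1, Rgs2 and Prkcz kept their calls under every scaling tried, and Gna11 did not after quantile normalization (-0.15, limma adjusted p = 0.215), with the authors' scaling (-0.19, 0.104) or with proximal tubule centring, where its sign turned (0.15, 0.394). Quantile normalization gave 5 higher and 1 lower for this list at 8 weeks (median -0.11), the authors' scaling 4 higher and 2 lower (median -0.16), and proximal tubule centring 8 higher and 1 lower (median 0.18). The hormone gene Fgf23 itself did not pass the filter in the cortex.

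**Figure D5:**
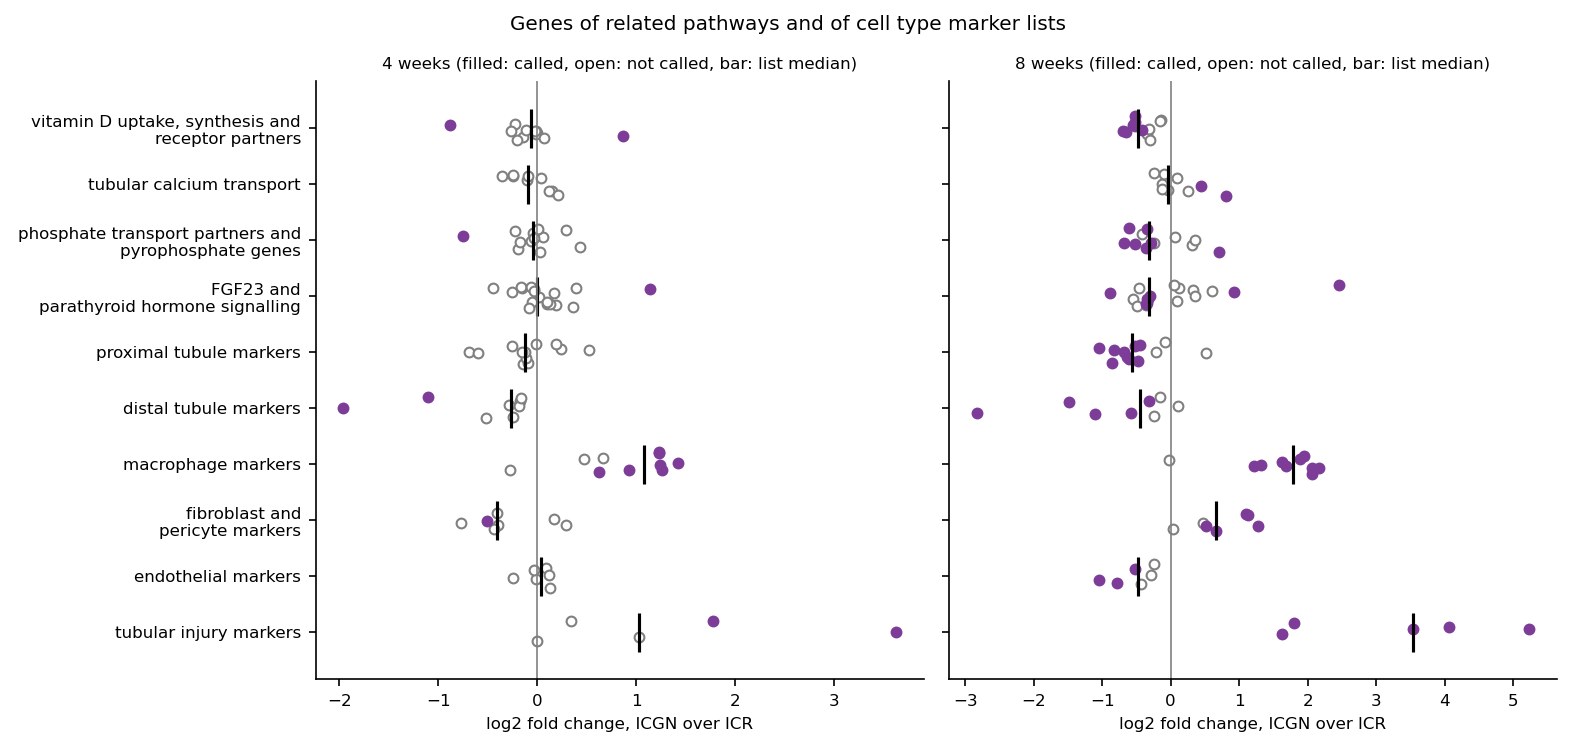
Log2 fold change of ICGN over ICR (x) for the tested genes of 4 related pathways and 6 marker lists (y) at 4 weeks (left) and 8 weeks (right); each point is a gene, filled where called, and the bar is the list median. Vitamin D partners centre on -0.47 and proximal tubule markers on -0.57 at 8 weeks, calcium genes have a median of -0.04, and macrophage and injury markers lie to the right.

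Comparisons of 8 with 4 weeks within a strain carry the limit that age and any array set of its own cannot be told apart. In ICGN, 0 members were called higher and 3 lower at 8 than at 4 weeks (23.4% of all genes called, 9.78% higher and 13.6% lower). These were Slc34a3 (-1.09 ± 0.18, limma adjusted p = 0.0010), Vdr (-0.41 ± 0.13, 0.0351) and Slc34a1 (-0.30 ± 0.09, 0.0337). The Vdr and Slc34a1 calls were not stable, since Vdr lost its call without any 1 of 5 ICGN arrays (limma adjusted p = 0.0530 to 0.133) and Slc34a1 without any 1 of 4 (0.0643 to 0.124). Without ICGN replicate 2 at 8 weeks, Cyp24a1 and Kl were called lower too (limma adjusted p = 0.0150 and 0.0123). In ICR, 3 were called higher and 2 lower (33.4% of all genes called, 19.6% higher and 13.8% lower). Vdr (0.71 ± 0.13, limma adjusted p = 9.8e-04), Slc20a2 (0.35 ± 0.12, 0.0307) and Pth1r (0.32 ± 0.08, 0.0089) were higher, and Cyp27b1 (-1.66 ± 0.31, 0.0012) and Slc34a3 (-0.64 ± 0.18, 0.0162) were lower. The calls of Slc34a3 and Slc20a2 in ICR were each lost without any 1 of 3 ICR arrays (limma adjusted p = 0.0527 to 0.0710 and 0.0671 to 0.111). The second Slc20a2 probe set went the other way in ICR (-0.25 ± 0.13, limma adjusted p = 0.166, not called). In ICGN it was called lower (-0.58 ± 0.13, 0.0063). With the mean of both probe sets the ICR value of Slc20a2 was 0.05 (0.722). Slc20a2 was not called with the authors' scaling (0.159), nor were Slc20a2 (0.142) and Pth1r (0.0885) after quantile normalization. The share of these calls that were higher was 58.6% in ICR here, 45.2% after quantile normalization and 37.9% with the authors' scaling. The member counts rest on each gene's brightest probe set. A second probe set of Cyp24a1 was called lower in ICGN (-1.40 ± 0.44, limma adjusted p = 0.0342). Another of Fgfr1 was called lower in ICGN (-0.59 ± 0.12, 0.0033) and in ICR (-0.38 ± 0.12, 0.0276). The dim second probe set of Slc20a1 was called lower in ICR (-0.81 ± 0.29, 0.0441).

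The genes whose profile over the 12 arrays lay nearest to a member's were found by the root mean square difference of log2 signals, each centred within its age. For Cyp24a1 the nearest was Igfbp1, an insulin-like growth factor binding protein, at 0.50, against a median of 1.08 over all genes. For Cyp27b1 they were Npy6r, Lst1 and B4galnt1, at 0.26, 0.28 and 0.30, against a median of 1.06. For Kl they were Dnaja3 and Ndufs1, both encoding mitochondrial proteins, and Lactb2, at 0.070, 0.072 and 0.076, against a median of 0.306. The strain difference is part of this measure, so genes that share its size are near by construction.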

How the data were processed

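Renal cortex RNA of 12 samples was measured on Affymetrix Mouse Genome 430 2.0 arrays, as the labels' protocols state. The table the authors deposited holds MAS5 signal intensity for each probe set, not on a log scale; the submitters' processing notes name the tool, whose version was not given in the sources used here. With 2% trimmed at each end, the deposited mean was 100.0 on the 4-week and 500.0 on the 8-week arrays, so each age had a target of its own.

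Here arrays were scaled to the common median of tested probe sets, 205, and analysed as log2(signal + 13) with R 4.3.3 and limma 3.58.1. Probe sets above their array median on at least 3 of 12 arrays were tested (24794). A gene was represented by its brightest probe set on average. One model with 4 group means (8 residual degrees of freedom), a mean-variance trend and Benjamini-Hochberg adjustment over 12385 genes gave 5 contrasts. From each related list up to 4 called genes with the smallest p were named for each strain comparison. Calb1, Lrp2, Fgf23, Slc9a3r2, Ezr, Trpv5, Trpv6, Cldn14, Cldn19 and Csf1r were named outside that rule. Alternatives covered scaling, offset, filter, choice of probe set, samples in the fit, variance model and leaving out each array. Members and lists were chosen with earlier results of these data known. The number of arrays limits the precision.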

Additional observations from a re-analysis of the deposited data

Results flagged for a closer look

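The strain difference at 8 weeks differed from that at 4 weeks, by the interaction term of the limma model, for 3 of the 10 genes. The log2 change of the difference was 2.03 for Cyp27b1, -1.12 for Vdr and -0.57 for Slc20a2 (adjusted p = 0.0136, 0.0035 and 0.0424). Over all genes 10.7% were called in this term, 3.88% higher and 6.77% lower. The Slc20a2 call was lost under 17 of 25 other settings. Its second probe set gave -0.33 ± 0.19 and was not called (limma adjusted p = 0.300). Among named genes of the related pathways the same term was called for Stc1 (1.10), Egr1 (1.31), Prkcz (-0.85), Slc17a1 (-0.75), Cyp27a1 (-1.03), Rxra (-0.51) and Slc9a3r1 (-0.42). Each age had its own scaling target and may have had its own array run. A term of this kind rests on the difference between strains within an age, and the cause was not tested.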

How the results depend on the processing

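The text rests on 2, 7, 3, 3 and 5 members called at 4 weeks, at 8 weeks, in the change between the ages, and over age in ICGN and in ICR. At 4 weeks the count was 1 with a common median of all probe sets, no filter, the compared groups alone, no mean-variance trend or centring on the proximal tubule markers, Pth1r being the call lost. The change between the ages had 5 members called with the filter at the 75th percentile. Over age in ICGN 6 genes were called in any probe set when every probe set was tested, 1 without the trend and 1 with proximal tubule centring, and over age in ICR 3 after quantile normalization and 3 with that centring. Leaving out each array in turn gave 1 to 2, 7 to 8, 2 to 4, 1 to 5 and 3 to 5 members. Cyp24a1, Cyp27b1 and Vdr kept their calls at 4 or 8 weeks named in the report under all 26 settings. Of 50 values of the members, 17 changed sign under at least 1 setting. In 14 of these the value was called neither here nor where the sign turned, as with Kl at 4 weeks (0.64, every probe set tested); the other 3 were Slc34a1 at 8 weeks (0.00054, proximal tubule centring) and, over age in ICR, another probe set of Slc20a1 (-0.81) and of Fgfr1 (-0.38). Over all genes, calls at 4 weeks numbered 502 and fell to 332 with proximal tubule centring; without 1 array they ranged over 215 to 574, lowest without ICGN replicate 2. Calls for the change between the ages ranged over 744 to 1468 without 1 array, and those over age in ICGN were 1818 with proximal tubule centring. That centring put the higher share of calls at 72.9% at 4 weeks, 75.7% over age in ICGN and 21.6% over age in ICR. Same-numbered replicates of different groups did not deviate together (correlations -0.09 to 0.09 over 12 pairs, 3 of them best matched to their own number). With the replicate block 2, 7, 3, 4 and 5 members were called; the change between the ages was then called for Cyp24a1 (adjusted p = 0.0374) and not for Slc20a2 (0.0652). The cause of these shifts was not tested. With 3 arrays a group, Cyp24a1 at 8 weeks has a wide interval, and the probe sets of Kl and of Slc20a1 disagree. Those of Slc20a2 disagree over age in ICR, and those of Fgfr1 over age in both strains.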

Other observations

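The 3 ICGN arrays at 8 weeks differed more in Cyp24a1 than those of any other group, with a coefficient of variation of 62.2%. The array of replicate 2 was the highest of the 3 for 7 of the 10 genes, namely Cyp24a1, Vdr, Kl, Slc34a1, Slc34a3, Pth1r and Fgfr1, and the lowest for Cyp27b1 and Slc20a1. It also had the highest proximal tubule marker sum (85545) and the lowest macrophage (6789) and injury marker sums (5045) of the group. In ICGN at 4 weeks the coefficient of variation was 41.1% for Cyp24a1 and 2.13% for Kl. These arrays were singled out after their values were seen.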
